A study of Urocitellus parryii with 44 samples.

Results

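Aminoacyl-tRNA synthetases, the enzymes that load each tRNA with its amino acid, were followed with the scaffold proteins Aimp1 and Aimp2 in brown adipose tissue of arctic ground squirrels (Urocitellus parryii). The genes were chosen by symbol: every probe whose only gene symbol was that of a cytosolic or mitochondrial synthetase, or Aimp1 or Aimp2, was taken. This gave 76 probes of the 38400 on 4 membranes, for 34 genes of 11626. The animals were 5 squirrels in winter torpor, the hibernator's state of lowered metabolism and body temperature, and 3 squirrels active in August. Total RNA labelled with radioactive phosphorus had been hybridised to the mouse cDNA membranes MA07, MA08, MA10 and MA11. Torpid animal 5 and summer animals 1 and 2 had their RNA run on duplicate columns, a and b, which were averaged before any comparison. Season and activity state changed together and cannot be told apart, and neither ages nor sexes are given in the sources used here.

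Each synthetase joins 1 amino acid to its tRNAs at the cost of ATP, and the charged tRNA then carries the amino acid to the ribosome. The enzymes belong to 2 unrelated structural classes, I and II, and Eprs, the glutamyl-prolyl enzyme, holds a domain of each. In the cytosol of animals several of them sit in 1 large multisynthetase complex held together by Aimp1 and Aimp2, while others are free. Mitochondria, which are dense in brown fat, have a second set encoded in the nucleus whose gene names mostly end in 2. Gars and Kars serve both compartments, charging glycine and lysine. Many cytosolic synthetase genes are known targets of Atf4, the transcription factor of the amino acid stress response. Protein synthesis as a whole is known to be strongly lowered in torpid hibernators.

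The deposited values were linear spot intensities already divided by the median of each of the 44 columns, and they are given here on the log2 scale, where 0 is the median spot of the column and 1 is a 2-fold difference. Levels of different probes were set against each other only as percentiles of signal, each within its own membrane. Of the 76 probes, 75 could be tested, having 2 or more animals with a value in each group, and 68 of these had a value in all 8 animals. MA07 carried 27 of the probes, MA08 22, MA10 16 and MA11 11, and 8 of the probes are 4 clones spotted in 2 places. Empty cells made up 1.01% of the synthetase and scaffold values on MA07, 1.24% of those on MA08, 8.52% of those on MA10 and 5.79% of those on MA11. The precision is limited by the number of animals, 5 torpid and 3 summer. The 11 columns of each membrane include the duplicate columns of 3 RNAs. The probes are of mouse and the RNA of squirrel: 17 of the 34 symbols stand unchanged in the RefSeq annotation of the squirrel, 16 stand there with a 1 added (Aars1 for Aars), and Tars2 was not matched. Dars, Nars2, Pars2 and Yars2 had no probe with a single symbol and were not analysed here. Among the brown fat markers, 6 of the listed genes were measured: the brightest probe of Ppargc1a lay at the 86.0th percentile of signal of its membrane, Cidea at the 78.6th, Elovl3 at the 71.9th, Prdm16 at the 58.9th, Zic1 at the 14.4th and Dio2 at the 7.23rd. Ucp1, the gene that defines the tissue, had no single-symbol probe and was not analysed here.

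No synthetase or scaffold transcript was called different between torpor and summer, and the differences that were measured lay on both sides of 0. By limma, with Benjamini-Hochberg adjustment over all 37848 tested probes, 0 of 75 probes had an adjusted p under 0.05, and the lowest adjusted p was 0.29. Over all tested probes 117 did, which is 0.309%. An unadjusted p under 0.05 was reached by 9 probes, 4 with higher means in torpor and 5 with lower, or 12% of the 75 against 11.6% of all tested probes. In 6 probes every torpid animal with a value lay on 1 side of every such summer animal, 3 above and 3 below. That is 8.0% against 8.50% of all probes. Among the 6, Iars on MA10 had values in 2 torpid animals, and a Sars probe on MA07 in 4. The difference was positive in 35 probes and negative in 40, so that 46.7% were positive against 50.0% of all probes. The counts were near those of the whole membranes. In whole tissue, less RNA per cell and fewer cells that carry it cannot be told apart.

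The spread of the differences was also close to that of all probes. The median difference, torpor minus summer, was -0.077 over the 75 probes and 6.5e-05 over all tested probes. Between the 5th and 95th percentiles the 75 probes ran from -0.66 to 0.67, and all probes from -0.73 to 0.79. The extremes were -1.13 for Wars2 and 1.19 for Iars, both on MA10, while the extremes of all probes were -2.89 and 4.36. A difference of more than 1 in size was found for 3 probes (4.0%), against 4.71% of all probes. A miss of the threshold does not show equal levels, and the intervals say how large a difference remains possible. The 95% interval of the difference lay wholly between -1 and 1 for 44 probes, or 58.7% against 54.3% of all probes, so for these a 2-fold difference lay outside the interval. For the other 31 it did not, and 13 of these were on MA10.

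**Figure D1:**
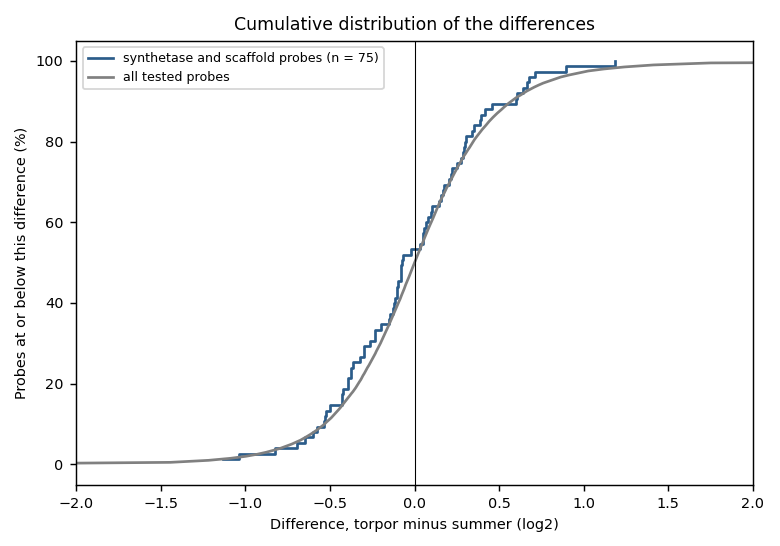
Cumulative share of probes (%) against the difference between torpor and summer on the log2 scale, as a step line for the 75 synthetase and scaffold probes and a smooth grey line for all tested probes. Both lines cross the middle near 0, with medians of -0.077 and 6.5e-05, and the step line ends at 1.19.

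**Figure D2:**
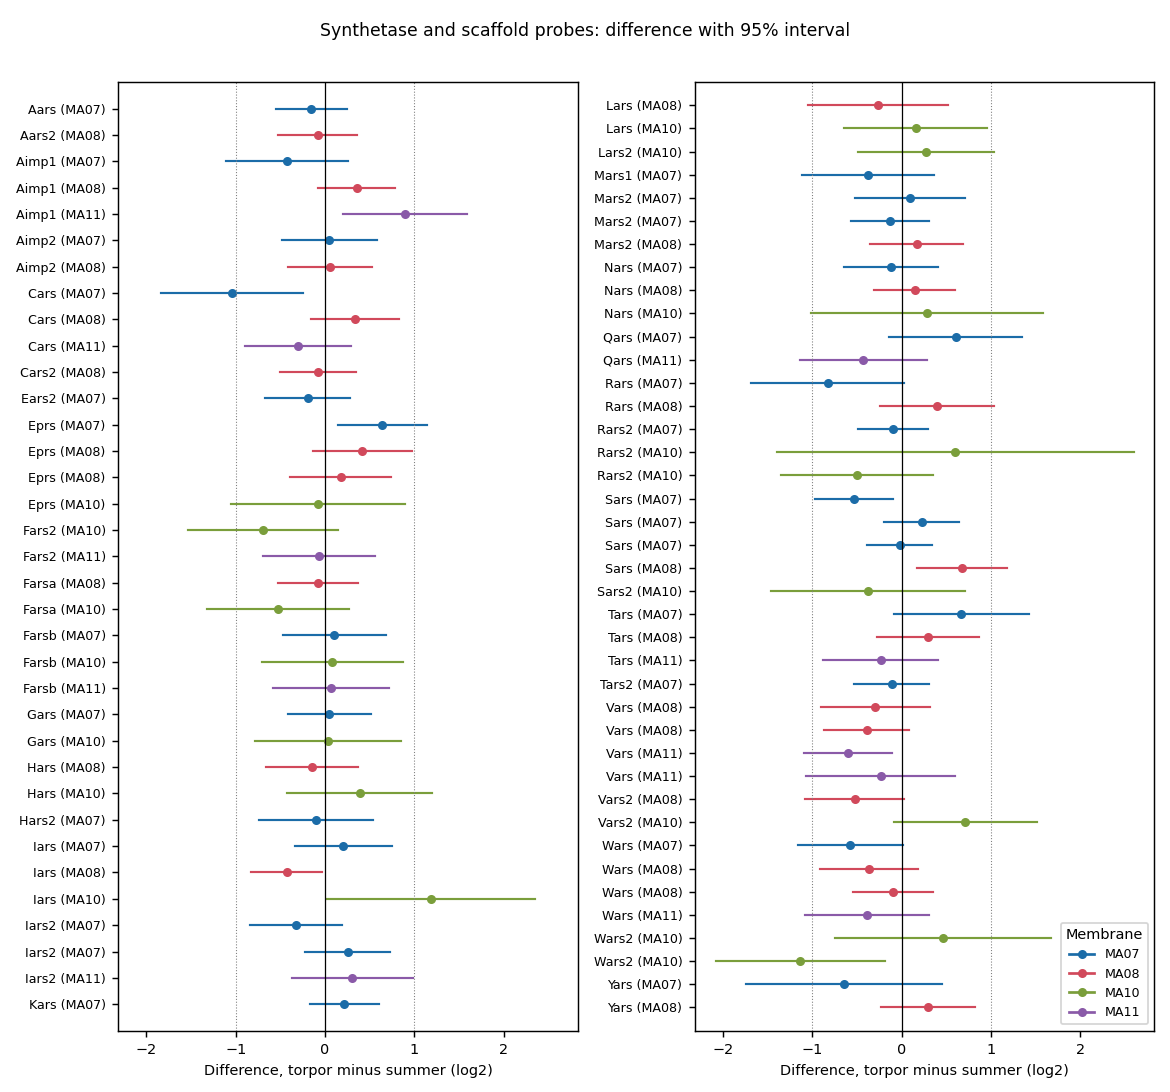
Difference between torpor and summer (log2) for each of the 75 tested probes, as a point with its 95% interval, coloured by membrane; positive values are higher in torpor, and dotted lines mark -1 and 1. The intervals on MA10 are the widest as a group, and genes such as Cars, Iars and Sars have probes on both sides of 0.

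Among the synthetases of the multisynthetase complex, 9 of 15 tested probes had a positive difference, with a median of 0.18. By the brightest probe of each gene, 3 of the 7 genes were positive. For Eprs the difference was positive for 3 of 4 probes, at 0.64 on MA07, 0.42 and 0.18 on MA08, and -0.08 on MA10. On MA07 (probe 3584) the torpid animals had 0.66, -0.10, -0.13, 0.21 and -0.13, against -0.76, -0.47 and -0.39 in summer animals. Every torpid animal lay above every summer animal. The difference of 0.64 ± 0.22 (SE) was 1.56-fold, higher in torpor, with an adjusted p of 0.308 by limma. On MA10 torpid animal 3 lay far below the other torpid animals, at -0.16 where the next was 1.34.

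Iars, which charges isoleucine, had 3 probes that pulled in different directions. On MA08 (probe 4546) torpid animals had 0.52, 0.58, 0.47, 0.37 and 0.59, against 1.06, 0.85 and 0.91 in summer animals. All torpid values lay below all summer values, and each group was tight, at 0.51 ± 0.09 (SD, n = 5) in torpor and 0.94 ± 0.11 (SD, n = 3) in summer. The difference was -0.43 ± 0.18 (SE), with an adjusted p of 0.390 by limma. The MA10 probe (3682) lay the other way, at -0.52 and -1.72 in torpid animals 1 and 5, against -1.76, -2.43 and -2.74 in summer animals. Its cells were empty for the other 3 torpid animals, so the difference of 1.19 ± 0.54 (SE, adjusted p = 0.424) rests on 2 torpid values. With dim values and empty cells set to the 10th percentile of signal it was 0.27. The duplicate columns of torpid animal 5 differed by 2.0 there, more than the whole difference between the groups. The third probe, on MA07 (8788), had 0.27, 0.07, 0.70, -0.07 and 0.05 in torpid animals, against 0.40, 0.04 and -0.45 in summer animals. These groups overlapped, with a difference of 0.21 ± 0.24 (SE), which was 0.41 without summer animal 1, 0.082 without torpid animal 3 and -0.016 without summer animal 3.

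The rest of the complex showed values on both sides of 0 as well. Rars, the arginine enzyme, had a difference of -0.83 ± 0.39 (SE, adjusted p = 0.449) on MA07 (probe 4914) and 0.39 ± 0.29 on MA08. The MA07 spot was among the dimmest, at the 1.42nd percentile of signal. Its values were -3.68, -2.55, -4.20, -3.89 and -3.60 in torpid animals, against -3.22, -3.06 and -1.99 in summer animals, and the groups overlapped. The difference was -0.44 without summer animal 3, and -0.017 with a floor at the 10th percentile of signal, below which dim values and empty cells are set to that percentile. Qars, for glutamine, likewise had 0.60 on MA07 and -0.43 on MA11. Lars, for leucine, had -0.26 on MA08, with a value for 4 torpid animals, and 0.16 on MA10. Kars had 1 probe at 0.22 ± 0.17 (SE), and Mars1, the methionine enzyme that also serves initiation, had 1 probe at -0.38 ± 0.33.

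The scaffold proteins Aimp1 and Aimp2 had positive differences in 4 of 5 probes, with a median of 0.054. Eef1e1, a further component of the complex counted here among the partners of synthetases, had 0 of 2 probes positive, at -0.60 and -0.054. For Aimp1, the probe on MA11 (5531) had 2.56, 1.97, 2.66, 2.09 and 2.11 in torpid animals, against 1.49, 2.04 and 0.62 in summer animals. The groups overlapped only through summer animal 2, which lay above torpid animal 2. The difference was 0.90 ± 0.32 (SE), or 1.86-fold higher in torpor, with an adjusted p of 0.297 by limma. It depended on the summer animals left in, at 1.22 without summer animal 2 (adjusted p = 0.114) and 0.52 without summer animal 3 (adjusted p = 0.637), and it was 0.49 with cyclic loess between columns. A spot of the same clone on MA08 (2143) had 1.95, 1.80, 2.0, 1.68 and 1.78 in torpid animals, against 1.52, 1.72 and 1.22 in summer animals, a difference of 0.35 ± 0.20 (SE). The other Aimp1 probe, a dim one on MA07, had a difference of -0.42 ± 0.31. Aimp2 differed by 0.05 on both MA07 and MA08, with standard errors of 0.24 and 0.21.

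**Figure D3:**
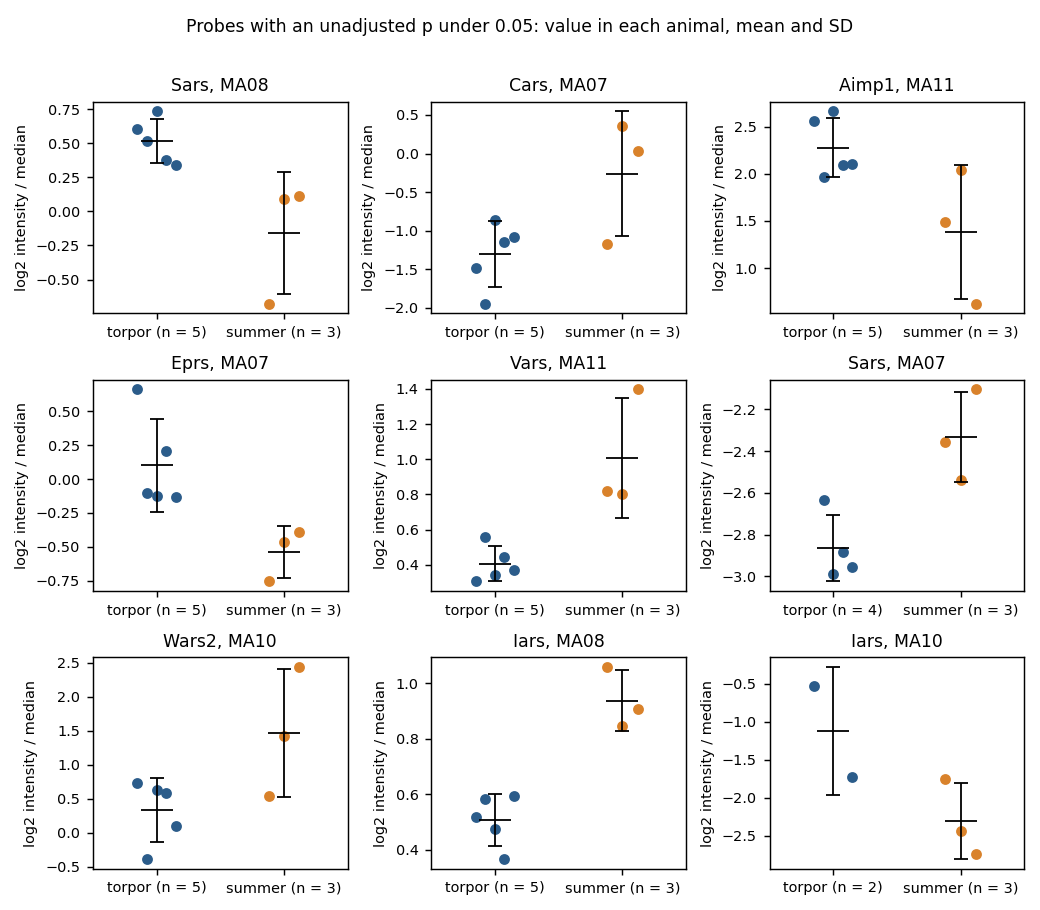
Log2 intensity over the column median in each animal for the 9 synthetase and scaffold probes with an unadjusted p under 0.05, torpid animals left and summer animals right, with the mean and SD of each group; the vertical scale differs between panels. The groups do not overlap in 6 panels, and Iars on MA10 has only 2 torpid values.

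The free cytosolic synthetases had 33 tested probes for 12 genes, 14 probes with a positive difference and a median of -0.10. By the brightest probe, 5 of the 12 genes were positive. Vars and Wars, which charge valine and tryptophan, had 4 probes each, all with negative differences. The Vars differences were -0.60 and -0.23 on MA11 and -0.30 and -0.39 on MA08, where the MA08 spots are of 1 clone. On the first of these (MA11, probe 1317) torpid animals had 0.31, 0.56, 0.34, 0.45 and 0.37, against 0.82, 0.80 and 1.40 in summer animals. No torpid animal reached the lowest summer animal, with a difference of -0.60 ± 0.23 (SE, adjusted p = 0.332). The duplicate columns of summer animal 1 lay 1.96 apart on this spot. For the Wars probes the differences were -0.58 on MA07, -0.37 and -0.10 on MA08 and -0.39 on MA11. The MA07 probe (120) had -0.40, 0.66, 0.24, -0.25 and 0.17 in torpid animals, against 1.0, 0.34 and 0.63 in summer animals. These groups overlapped, and the difference of -0.58 ± 0.26 (SE) had an adjusted p of 0.438 by limma. The MA11 spot of Wars and 1 of its MA08 spots are of the same clone.

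Sars, the serine enzyme, held both the lowest p of all 75 probes and a probe that lay the other way. On MA08 (probe 8435) torpid animals had 0.61, 0.52, 0.73, 0.38 and 0.34, against -0.68, 0.09 and 0.11 in summer animals. All torpid values were above all summer values, and summer animal 1 stood below the other two. The difference was 0.68 ± 0.23 (SE), or 1.60-fold higher in torpor, with an adjusted p of 0.290 by limma, and 0.42 without summer animal 1 or with the second duplicates only. On MA07 (probe 3663) the values were -2.64, -2.99, -2.88 and -2.95 in torpid animals 2 to 5, with an empty cell for torpid animal 1, against -2.36, -2.54 and -2.10 in summer animals. Here the torpid values all lay below, at a spot on the 5.01st percentile of signal, with a difference of -0.53 ± 0.19 (SE, adjusted p = 0.333). With the floor at the 10th percentile it was -0.030, and the duplicates of torpid animal 5 lay 1.69 apart there. The brightest 2 Sars spots, also on MA07, differed by -0.02 ± 0.16 and 0.22 ± 0.19 (SE).

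Cars, which charges cysteine, had the largest difference of the free enzymes. On MA07 (probe 5089) torpid animals had -1.48, -1.94, -0.86, -1.15 and -1.08, against -1.18, 0.36 and 0.03 in summer animals. Summer animal 1 lay among the torpid animals, and the other 2 summer animals lay above them all. The difference was -1.04 ± 0.36 (SE), or 2.06-fold lower in torpor, with an adjusted p of 0.297 by limma. Without summer animal 1 it was -1.50, with an adjusted p of 0.0548, the lowest of any synthetase probe under any setting tried. The brighter Cars probe on MA08 (8657) had 1.22, 1.08, 1.40, 1.18 and 0.94 in torpid animals, against 0.81, 1.23 and 0.44 in summer animals. Its difference was positive, at 0.34 ± 0.22 (SE), with 0.54 without summer animal 2 and 0.14 without summer animal 3. The MA11 probe (4168) had 0.25, -0.27, -0.18, 0.19 and 0.43 in torpid animals, against 0.09, 0.14 and 0.93 in summer animals, a difference of -0.30 ± 0.27 that was -0.030 without summer animal 3.

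None of the remaining free enzymes had a probe with an unadjusted p under 0.05. Aars, for alanine, differed by -0.15 ± 0.18 (SE) and Gars by 0.05 ± 0.21 on MA07 and 0.03 ± 0.39 on MA10. Phenylalanine is charged in the cytosol by an enzyme of Farsa and Farsb subunits. Their transcripts differed by -0.08 and -0.53 for Farsa, and by 0.10, 0.08 and 0.07 for Farsb, whose MA10 and MA11 spots are of 1 clone. Hars, for histidine, differed by -0.15 on MA08 and 0.39 on MA10, and its MA11 probe had too few values to test. Nars, for asparagine, had -0.12, 0.14 and 0.29, the last with 2 torpid animals. Tars, for threonine, had 0.67 at a dim MA07 spot (4.61st percentile of signal). Its other differences were 0.30 on MA08 and -0.24 at its brightest probe, on MA11. Yars, for tyrosine, had -0.65 at a dim MA07 spot and 0.29 on MA08. The 95% interval of each of these differences included 0.

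The mitochondrial synthetases had 22 tested probes for 13 genes, with 8 positive differences and a median of -0.091. By the brightest probe, 3 of the 13 genes were positive, and 4 were by the median of their probes. Wars2, the mitochondrial tryptophan enzyme, had the lowest difference of all 75 probes, on MA10 (probe 2419). Torpid animals had 0.73, -0.39, 0.64, 0.59 and 0.09, against 0.55, 1.42 and 2.44 in summer animals. The summer animals were far apart and the lowest of them lay among the torpid animals. The difference was -1.13 ± 0.45 (SE, adjusted p = 0.335), and the duplicates of summer animal 1 lay 1.66 apart. Without summer animal 3 it was -0.65 (adjusted p = 0.706). A second Wars2 probe on the same membrane (331) had 1.63, 1.10, 0.89, -0.83 and 1.10 in torpid animals, against 1.52, 0.44 and -1.0 in summer animals. Its difference was 0.46 ± 0.57 (SE), and with 1 animal left out it ran from -0.20 (without summer animal 3) to 1.06 (without summer animal 1).

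Vars2, the mitochondrial valine enzyme, was also split. At a dim MA08 spot (probe 7915, 4.29th percentile of signal) it had -1.95, -1.96, -2.22 and -1.30 in torpid animals 1, 2, 4 and 5, against -1.41, -1.32 and -1.27 in summer animals. Torpid animal 5 lay within the summer range, and the difference was -0.52 ± 0.25 (SE, adjusted p = 0.457). With the floor at the 10th percentile it was -0.051. The brighter MA10 probe differed by 0.71 ± 0.38. Fars2, for phenylalanine, differed by -0.70 ± 0.40 (SE) on MA10 and -0.07 ± 0.29 on MA11. Iars2 had -0.32, 0.25 and 0.30, Mars2 had 0.10, -0.13 and 0.17, and Rars2 had -0.10, 0.60 and -0.50, where 0.60 ± 0.93 (SE) rests on 2 animals of each group. The genes with a single probe were Aars2 at -0.08, Cars2 at -0.08, Ears2 (glutamate) at -0.20, Hars2 at -0.10, Lars2 at 0.27, Sars2 at -0.38 with 4 torpid animals, and Tars2 at -0.11. None of these 7 differences exceeded its standard error.

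Averaging the probes of a gene in each animal, with each probe first centred on the mean of its 2 group means, gave 1 value per gene. This gene-level fit was added after the data had been seen. By limma 0 of 34 genes had an adjusted p under 0.05, where 0.147% of the 11553 genes did, and 0 had an unadjusted p under 0.05, where 11.6% of all genes did. The difference was positive for 16 genes and negative for 18, where 50.4% of all genes were positive. The median was -0.055 for the 34 genes and 0.0028 for all. In 32 of the 34 genes (94.1%) the 95% interval lay between -1 and 1, against 76.3% of all genes. Several tested probes were averaged for 24 of the 34 genes and for 6775 of the 11553, so these shares are not for like numbers of probes. By single probes the shares were 58.7% and 54.3%. The exceptions among the 34 genes were Mars1, at -0.38 with an interval of -1.11 to 0.36, and Sars2, at -0.38 with an interval of -1.50 to 0.74, each measured by 1 probe. The lowest adjusted p was 0.477, for Wars at -0.36 ± 0.18 (SE). Vars stood at -0.38 ± 0.20, Fars2 at -0.38 ± 0.20, Cars at -0.33 ± 0.20, and on the positive side Eprs at 0.29 ± 0.18, Aimp1 at 0.27 ± 0.20 and Lars2 at 0.27 ± 0.20. By place in the cell, 4 of 7 genes of the complex and 2 of 2 scaffold genes (Aimp1 and Aimp2) were positive. So were 6 of 12 free cytosolic and 4 of 13 mitochondrial genes. Eef1e1, counted among the partners, stood at -0.33 ± 0.21 (SE).

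**Figure D4:**
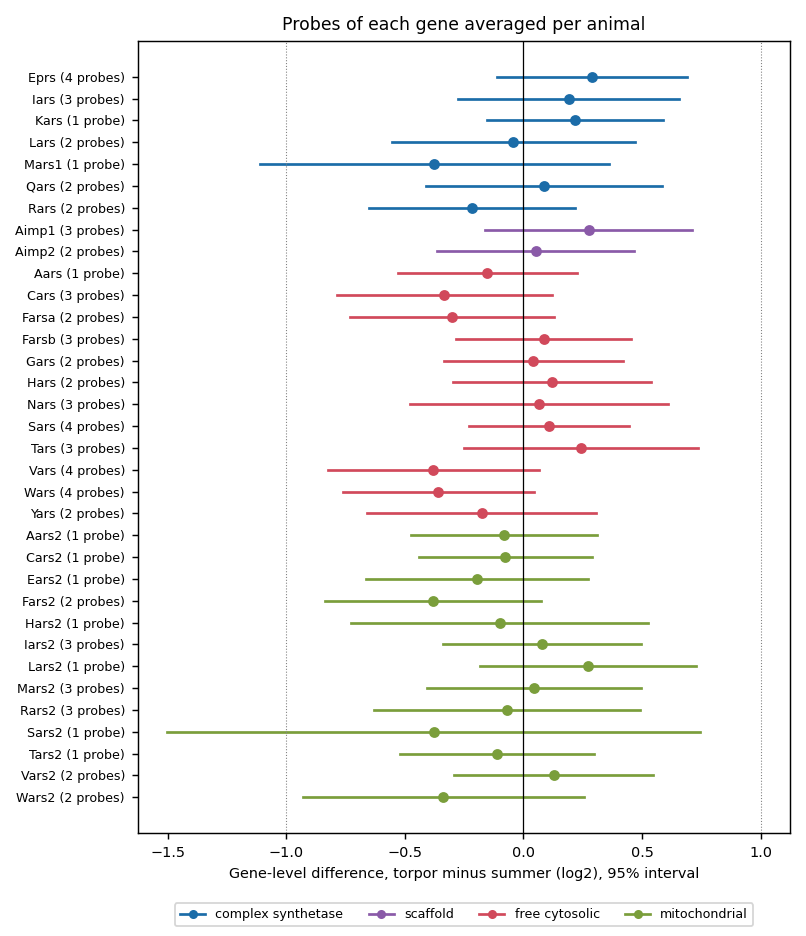
Difference between torpor and summer (log2) for each of the 34 genes after averaging its probes per animal, with the 95% interval, coloured by the place of the enzyme; dotted lines mark -1 and 1. All intervals include 0, and those of Mars1 and Sars2 pass -1.

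Probes of 1 gene often lay on different sides of 0. Of the 24 genes with several tested probes, 7 (29.2%) had all probes of 1 sign, against 38.2% of all such genes. Those with only positive differences were Aimp2, Farsb and Gars, and those with only negative ones were Fars2, Farsa, Vars and Wars. By structural class, 15 of 39 class I probes and 13 of 27 class II probes were positive, with medians of -0.20 and -0.022. By the brightest probe of each gene, 13 of the 34 genes were positive, where 53.2% of all genes were, and 0 had an adjusted p under 0.05, where 0.355% of all genes did. By the median of each gene's probes 16 were positive, so the count moved with the choice of probe.

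The membranes differed in precision. The median standard error of the synthetase and scaffold probes was 0.24 for MA07, 0.23 for MA08, 0.40 for MA10 and 0.30 for MA11, and the interval lay between -1 and 1 for 18 of 27, 18 of 22, 3 of 16 and 5 of 10 tested probes. Median differences were -0.10, -0.012, 0.12 and -0.24 in the same order, and the medians of all probes on these membranes were -0.021, 0.0083, -0.0071 and 0.022. The duplicate columns give the technical error. Over 219 pairs of a and b values of the 76 probes, the size of the difference had a median of 0.34, against 0.39 for all probes, and exceeded 1 in 28 pairs. The median was 0.26 for MA07, 0.33 for MA08, 0.55 for MA10 and 0.38 for MA11. The median SD between animals was 0.34 in torpor and 0.36 in summer, about as large as the gap between duplicates of 1 RNA. The largest gap, 3.70, was for Lars on MA08 in torpid animal 5.

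**Figure D5:**
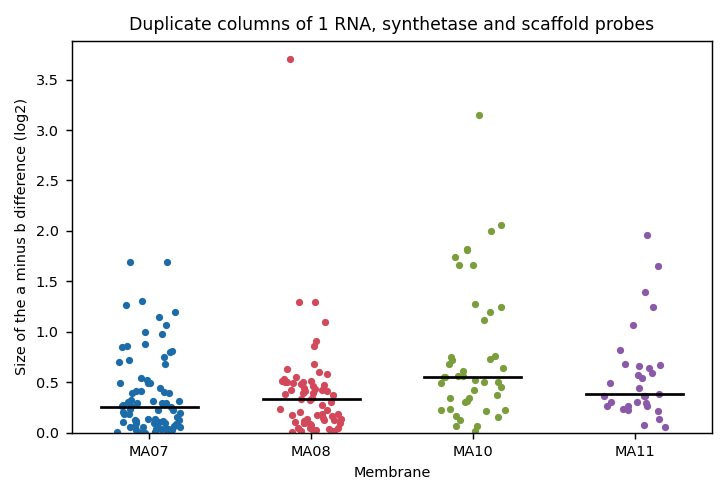
Size of the difference between the a and b columns of 1 RNA (log2) for each synthetase and scaffold probe and each of the 3 split RNAs, by membrane, with the median as a line. Medians run from 0.26 on MA07 to 0.55 on MA10, and single pairs reach 3.70.

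Genes that work beside the synthetases were read from lists of gene symbols. In each list 0 genes had an adjusted p under 0.05, by the brightest probe or by any other of their probes. By limma an unadjusted p under 0.05 was found at the brightest probe of 0 partners of synthetases, of 1 positive and 1 negative gene of tRNA maturation, and of 3 positive and 1 negative gene of the amino acid response, where 12.7% of all genes had one. The partners of synthetases and charged tRNA had 9 measured genes, 4 positive, with a median of -0.054 against 0.030 for the brightest probes of all genes. By the median of each gene's probes 3 were positive, with medians of -0.094 for the list and 0.0017 for all genes. Gatb, a subunit of the mitochondrial enzyme that converts glutamate to glutamine on its tRNA, had 0.81, 0.70, 0.69, 0.90 and 0.73 in torpid animals, against 0.02, 0.63 and 0.48 in summer animals. The groups did not overlap, with a difference of 0.39 ± 0.20 (SE, adjusted p = 0.486), and all 3 Gatb probes were positive. Without summer animal 1 it was 0.21. Dtd2, which removes wrongly attached amino acids from tRNA, differed by 0.30, and by 0.17 with cyclic loess between columns. Xpot, the exporter of tRNA from the nucleus, differed by -0.34 at its brightest probe, by -0.074 there without summer animal 1 and by -0.54 without summer animal 2, and 2 of its 4 probes were positive.

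Of 43 measured genes of tRNA maturation and modification, 22 were positive by the brightest probe with a median of 0.020, and 19 by the median of each gene's probes with a median of -0.029. Rpp40, a subunit of RNase P, which trims the 5′ end of tRNA, had 6.89, 6.32, 4.98, 6.07 and 5.20 in torpid animals, against 5.52, 3.27 and 4.67 in summer animals. The groups overlapped, with a difference of 1.41 ± 0.53 (SE, adjusted p = 0.306). It turned on the duplicate column used, at 2.61 with the first duplicates and 0.20 with the second, and was 0.80 without summer animal 2. Cdkal1, a tRNA methylthiotransferase, differed by -0.81 ± 0.35 (adjusted p = 0.404), by -0.51 without summer animal 3 and by -1.32 with cyclic loess. Its other probe stood at 0.17. Dus3l, a dihydrouridine synthase, differed by -0.39 ± 0.19 (adjusted p = 0.465).

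The list of the amino acid response around Atf4 had 41 measured genes, Atf4 itself and regulators upstream of it such as Eif2ak4 included. Of these, 22 were positive by the brightest probe, with a median of 0.12. The median of each gene's probes was positive for 20, with a median of -0.0014. Asns, asparagine synthetase, came nearest to the threshold, on MA11 (probe 2522), with 2.30, 1.52, 2.10, 2.47 and 1.51 in torpid animals, against 0.59, 0.81 and 0.60 in summer animals. No torpid animal came down to the summer range. The difference was 1.31 ± 0.27 (SE) with an adjusted p of 0.0779 by limma, and the other 3 Asns probes were positive too, the lowest at 0.18. It passed in 2 alternative fits, with an adjusted p of 0.0391 with dim probes left out and 0.0308 with a prior that follows intensity, while its adjusted p over all alternatives ran from 0.0308 to 0.283. Psat1, of serine synthesis, lay the other way on MA10, with 3.30, 3.33, 2.85, 4.55 and 4.35 in torpid animals, against 5.20, 5.14 and 5.42 in summer animals. The difference was -1.58 ± 0.43 (SE, adjusted p = 0.152), and its other probes stood at -0.15 and 0.11. Aldh18a1, of proline synthesis, differed by 0.69 ± 0.23 (adjusted p = 0.271). Atf4 itself differed by -0.10 ± 0.28 (SE) at its brightest probe. Its other 2 probes stood at -1.67 and 0.11, and none had an adjusted p under 0.05.

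Markers of tissue makeup were read beside these results. None of the measured markers of brown fat (6 genes), fat of any kind (4), skeletal muscle (4), blood (2), immune cells (5), endothelium (4) and nerve (5) had an adjusted p under 0.05 by the brightest probe. By limma 1 muscle, 2 immune, 1 endothelial and 1 nerve gene had an unadjusted p under 0.05 at that probe, where 12.7% of all genes had one. The median differences of the lists, in the order first given, were -0.44, 0.089, -0.36, -0.15, 0.20, -0.27 and 0.45. Markers of 1 list did not move as one: of the 5 immune genes 3 were positive by the brightest probe, and the immune gene with the lowest adjusted p, Lcp1 (0.170, at 1.45 ± 0.39), had 2 of its 5 probes positive and a median of -0.29 over them. The part of tissue makeup in the synthetase values was not tested.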

How the data were processed

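Brown adipose tissue RNA was measured on 4 mouse cDNA membranes. The files deposited by the authors hold linear intensity values scaled so that every column has a median of 1. How the images were read, how background was treated and why some cells are empty is not given in the sources used here. The values were taken to log2, empty cells were left missing and duplicates a and b of 1 RNA were averaged, leaving 5 torpid and 3 summer animals.

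Torpor minus summer was fitted membrane by membrane, two-sided, with lmFit and eBayes of limma 3.58.1 (R 4.3.3), where each group had 2 or more animals with a value. Adjusted p-values are Benjamini-Hochberg over all 37848 tested probes, with a threshold of 0.05. The platform annotation gave the symbols, in which 25070 probes have 1 symbol and 941 several. Of the latter, 3 that pair a synthetase or Aimp2 with a second gene were left out. A gene with several probes was represented by its brightest, ranked by signal percentile within the membrane.

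The members, the gene lists and the tests were chosen with earlier results of these data known. Every gene with a probe is named. Values per animal are given for the 12 probes with the smallest p and for genes whose probes disagree in sign where 1 reaches 1 in size, and each further list names the 3 genes with the smallest p. Alternatives changed the scaling, floor, filter, prior, duplicates, block, adjustment, animals and the probe used per gene. Nothing in the labels names a batch. The spread between animals sets the error of each value.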

Additional observations from a re-analysis of the deposited data

Results flagged for a closer look

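In 7 of the 72 probes whose torpid values could be checked by Dixon's test, 1 torpid animal stood far from the others, or 9.72%, where the same test marks 6.15% of all tested probes and chance about 1 in 20. Torpid animal 2 was high for Vars on MA08 (0.67, where the next was 0.11) and low for Yars on MA07 (-4.31, next -2.85). Torpid animal 3 was low for Eprs on MA10 (-0.16, next 1.34) and high for Tars on MA08 (0.31, next -0.22). Torpid animal 4 was high for Farsb on MA11 (-0.065, next -0.77). Torpid animal 5 was low for Sars on MA07 (0.69, next 0.95). It was also low for Lars on MA08 (-2.0, next -0.78), where its duplicate columns lay 3.70 apart. No single animal made up most of these, with 2, 2, 1 and 2 probes for torpid animals 2, 3, 4 and 5.

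The Hars probe on MA11 (3086) was not tested, because it had a value in 3 of 5 torpid animals (-1.64, -2.33 and -1.70 in torpid animals 1, 3 and 5) and in 0 of 3 summer animals. It was a dim spot, at the 5.07th percentile of signal. The difference was not tested.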

How the results depend on the processing

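The count of synthetase and scaffold probes with an adjusted p under 0.05 was 0 in the fit reported and in the alternatives run on it, each animal left out included. With an unadjusted p under 0.05 there were from 2 (without summer replicate 3) to 12 such probes. The share of positive differences ran from 38.7% (without summer replicate 1) to 49.3%, and the median difference from -0.11 to -0.023. The count over all probes moved much more. In place of 117 it was 63 with cyclic loess, 76 with a floor, 238 with dim probes left out, 228 with an intensity trend and robust prior, 176 with the first duplicates only and 38 with the second, 69 without MA10 (chosen after seeing the data), and from 17 to 347 with 1 animal left out. With the replicate block it was 32. The labels do not say whether the replicate numbers pair animals. The deviations of same-numbered animals correlated between -0.063 and 0.052 over 3 pairs, and those of differently numbered animals between -0.055 and 0.079. With so few animals these correlations cannot decide whether the numbers pair them. Among the synthetase and scaffold probes, up to 12 differences turned sign in 1 setting (the replicate block), 1 of them over 0.3 in size, and 10 did without summer replicate 3, 2 of them over 0.3. Without summer replicate 3 the difference of Iars on MA07 (probe 8788) turned from 0.21, which is under 0.3, to -0.016. That of Wars2 on MA10 (probe 331) turned from 0.46 to -0.20. With 1 animal left out these differences of Iars and Wars2 ran up to 0.41 and 1.06. Asns passed with dim probes left out and with the intensity trend. The causes were not tested.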
